A study of Mus musculus with 2 samples.

Results

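Eya1, Six4, Pax1, Pax9, Tbx1, Hoxa3 and Isl1 are transcription factors or transcriptional co-factors that are needed for, or mark, the pharyngeal pouches of the embryo, from which the parathyroid glands and the thymus arise. The 7 genes were taken by symbol from the 32287 entries of the count tables, and all 7 were present in both libraries. They were followed in the parathyroid glands of adult mice that had formed from mouse embryonic stem cells (mESCs). The hosts were Gcm2-/- mice on a BDF1B6 background, which lack the factor needed to build the gland, and they had been complemented with mESCs carrying a Pth-tdTomato reporter. Both libraries belong to this 1 group, so that no uncomplemented or wild-type gland was analysed here and every comparison is between cell types of the same glands. Glands of males and females were pooled. Replicate 1 came from 3 mice aged 9 to 12 weeks, whose blood was 50 to 70% chimeric, and replicate 2 from 5 mice aged 6 to 13 weeks, whose blood was 60 to 70% chimeric. Each library is a pool, so values cannot be given by animal, and the labels do not say which cells of the glands came from the host.

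Parathyroid cells secrete parathyroid hormone, encoded by Pth, in response to the calcium level that they sense through the receptor Casr. In the mouse embryo the parathyroid and the thymus come from a common primordium in the third pharyngeal pouch, and Gcm2 marks and maintains the parathyroid part of it. Upstream of Gcm2 lies a network that includes Hoxa3, Pax1, Pax9, Eya1 and Six4, in which the Eya proteins have no DNA-binding domain of their own and act as co-activators of their homeodomain partners. Tbx1, a T-box factor, patterns the pharyngeal endoderm, and Isl1, a LIM-homeodomain factor, is expressed in pharyngeal endoderm, heart progenitors and motor neurons.

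After filtering, 1240 barcodes of replicate 1 and 3313 of replicate 2 remained, with 39816872 and 87142723 unique molecular identifiers (UMIs, each standing for 1 captured RNA molecule). Barcodes with at least 5% of their UMIs from Pth were called parathyroid. They numbered 660 and 2237, with median depths of 37729.5 and 30583 UMIs. Barcodes with under 1% Pth, 566 and 1054, were clustered without the 7 factors and named by markers, with names that mean resemblance only (fibroblast-like and so on). Between these limits lay 14 and 22 barcodes. At the 5% limit the highest Pth share below was 3.77% and the lowest above was 6.38% in replicate 1, and 4.89% and 5.40% in replicate 2. A further 5 cell types or clusters had at least 20 barcodes in each library and entered the tests: fibroblast-like barcodes (230 and 453), endothelial-like (106 and 270), macrophage-like (55 and 133), T cell-like (36 and 51) and an unnamed cluster led by Igkc and Cd209a (41 and 43), here the Cd209a cluster. Finer clustering gave a dendritic cell-like cluster led by Cd209a (30 and 19 barcodes) and a B cell-like cluster led by Igkc (10 and 24). The Cd209a cluster may therefore mix cell types, in shares that differ between the libraries. Levels are given in CPM (the usual depth-scaled count). CPM are the UMIs of a gene scaled to the total UMIs of all barcodes of a type in a library.

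The label of the parathyroid barcodes held against other genes of the gland. Gcm2, the gene deleted in the hosts, stood at 157 and 159 CPM in the parathyroid barcodes, against averages of 2.69 and 2.97 CPM over the 5 other types in replicates 1 and 2. Where the host deletion lies relative to the counted 3' tags was not given in the sources used here. Casr averaged 332 ± 24.6 CPM in parathyroid barcodes and 8.78 ± 1.12 CPM in the other types (SD, n = 2 libraries each). The summed markers of fibroblasts reached 16.8 and 122 CPM in parathyroid barcodes, against 24460 and 27460 CPM in fibroblast-like barcodes. Least apart were the summed markers of natural killer or innate lymphoid cells. They stood at 555 and 371 CPM in parathyroid barcodes, against 2034 and 571 CPM in the barcodes named by them. Pth itself, at 142702 and 158372 CPM in parathyroid barcodes, was found at 1179 to 1979 CPM in the 5 other types, which is the level at which free parathyroid RNA has to be reckoned with there.

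The genes lie at separate loci (GRCm38, the files' mm10 build). Eya1 (ENSMUSG00000025932) is at chr1:14168954-14310235 on the minus strand and Six4 (ENSMUSG00000034460) at chr12:73099609-73113456, minus. The paralogs Pax1 (ENSMUSG00000037034) and Pax9 (ENSMUSG00000001497) are at chr2:147361925-147393295 and chr12:56691767-56712822, both on the plus strand. Tbx1 (ENSMUSG00000009097) is at chr16:18580979-18590671, minus, Hoxa3 (ENSMUSG00000079560) at chr6:52169062-52213336, minus, and Isl1 (ENSMUSG00000042258) at chr13:116298281-116309689, minus. The Hoxa3 gene model overlaps those of Hoxa4, Hoxa5 and Hoxa6 on its own strand and several antisense genes, and Pax9 overlaps Slc25a21 on the opposite strand. Whether counting used strand was not given in the sources used here, so counts of these overlapping genes are less certain. Slc25a21 stood at 252 and 211 CPM in the parathyroid barcodes and at 27.9 and 11.1 CPM in the fibroblast-like barcodes.

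Promoters were read because Pax1, Pax9, Six4 and Tbx1 shared a parathyroid-high pattern, and 1 window each is shown for the Pax paralogs and for Six4. RefSeq windows of 300 bases around an annotated start (GRCm38.p6) were found for 6 of the 7 genes. They were searched on both strands for GATAA (bound by GATA factors), TCAGGTT (Six4 and related homeodomain factors), ATGCGGG (Gcm factors) and AGGTGTGA (T-box factors), motifs that do not overlap one another. The windows below are shown 5′ to 3′ on the gene's strand, with motif matches in capitals.
Pax9 (chr12:56695221-56695520, plus strand): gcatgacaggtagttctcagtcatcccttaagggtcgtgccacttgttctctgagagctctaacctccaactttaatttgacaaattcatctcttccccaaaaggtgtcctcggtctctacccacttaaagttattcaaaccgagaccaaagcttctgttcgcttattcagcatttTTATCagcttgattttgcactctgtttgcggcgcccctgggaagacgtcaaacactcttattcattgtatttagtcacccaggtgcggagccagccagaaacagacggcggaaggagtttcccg
Pax1 (chr2:147364744-147365043, plus strand): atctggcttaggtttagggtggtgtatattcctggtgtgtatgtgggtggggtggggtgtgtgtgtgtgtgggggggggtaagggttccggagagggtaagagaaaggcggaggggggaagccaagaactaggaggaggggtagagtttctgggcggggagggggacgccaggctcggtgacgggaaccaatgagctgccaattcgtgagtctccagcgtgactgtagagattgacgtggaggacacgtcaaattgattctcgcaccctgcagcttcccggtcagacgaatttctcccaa
Six4 (chr12:73113196-73113495, minus strand): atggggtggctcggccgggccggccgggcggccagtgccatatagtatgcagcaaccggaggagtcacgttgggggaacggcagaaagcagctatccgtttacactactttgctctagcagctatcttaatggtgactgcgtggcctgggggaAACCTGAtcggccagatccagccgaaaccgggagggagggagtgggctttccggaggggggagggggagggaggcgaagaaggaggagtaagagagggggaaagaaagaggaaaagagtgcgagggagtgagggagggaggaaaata
The Pax9 window held 1 GATAA, which 25.4% of the 32851 windows in the table also hold, and the Six4 window held 1 TCAGGTT, found in 4.07% of them. None of the 4 motifs was in the Pax1 window, the second Six4 window, either Tbx1 window or the Hoxa3 window. The Isl1 window, of the factor that was scarcely counted, held 2 GATAA. The motifs ATGCGGG and AGGTGTGA, present in 1.41% and 1.28% of all windows, were in no window of these 6 genes.

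Among the 6 types tested, Eya1, Six4, Pax1, Pax9 and Tbx1 were highest in the parathyroid barcodes of both libraries. The share of all genes with that pattern was not counted, so how common it is cannot be said. Some groups too small to be tested had higher levels, among them Eya1 at 479 and 1228 CPM in a cluster led by Erbb4 and Tbx1 at 129 and 344 CPM in lymphatic endothelial-like barcodes. Hoxa3 was present in parathyroid barcodes but lay higher in fibroblast-like and endothelial-like barcodes, and Isl1 was at the limit of detection in each of the 6. In edgeR's quasi-likelihood test on summed counts, 6 of the 6 factors that passed the filter on low counts were called higher in parathyroid barcodes than in the average of the log levels of the 5 other types (adjusted p under 0.05), where 36.7% of all 13302 genes tested were called higher. With that background the count itself says little, and the sizes below carry the description. Isl1 did not pass the filter.

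**Figure D1:**
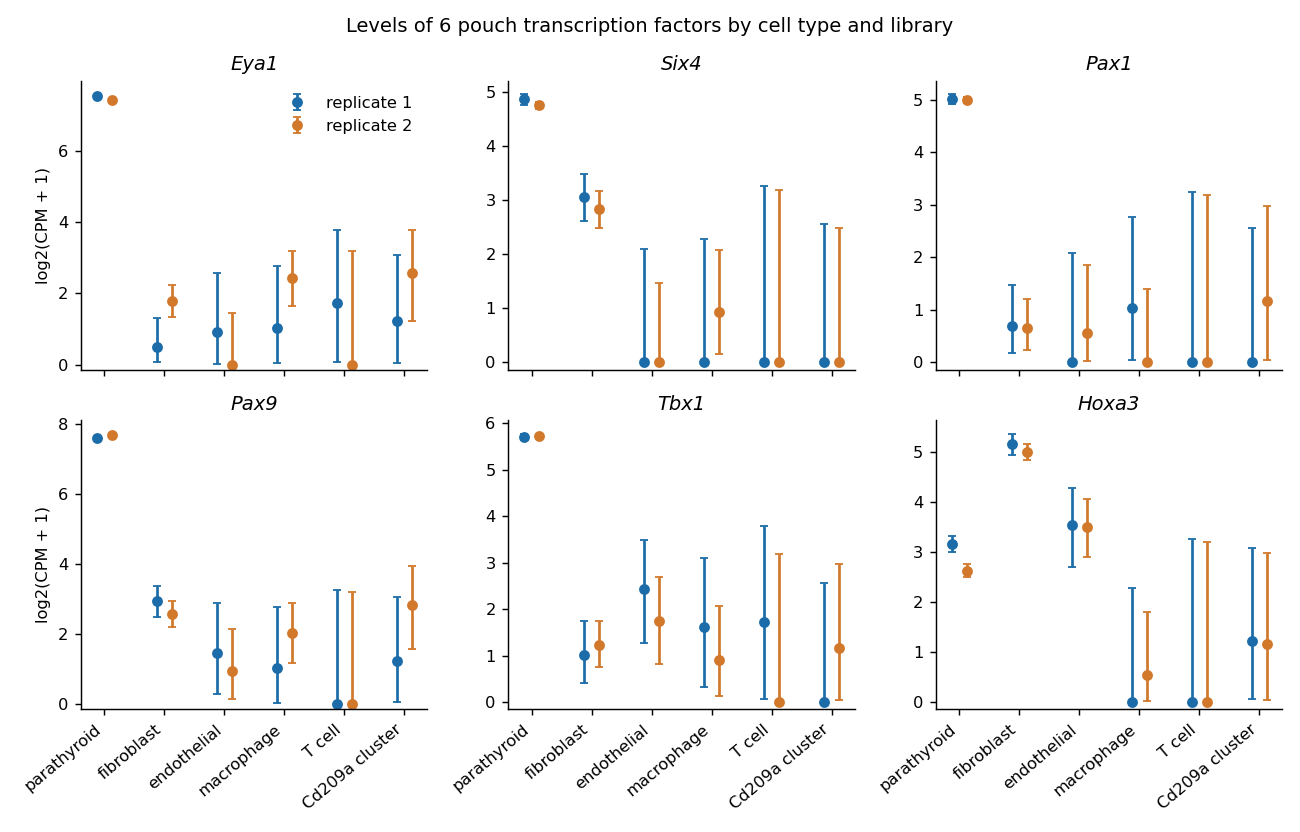
Levels of 6 factors as log2(CPM + 1) in parathyroid barcodes and in 5 other cell types or clusters (the names stand for resemblance), each point 1 library and each bar the exact Poisson interval at 95% confidence, which covers counting error only. For Eya1, Six4, Pax1, Pax9 and Tbx1 the parathyroid points lie above all others, while Hoxa3 lies at 34.6 and 31.0 CPM in fibroblast-like barcodes and at 7.96 and 5.18 CPM in parathyroid barcodes.

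Eya1, the co-activator, had 186 and 172 CPM in the parathyroid barcodes of replicates 1 and 2. In the same order it had 0.404 and 2.47 CPM in fibroblast-like, 0.881 and 0 in endothelial-like, 1.05 and 4.45 in macrophage-like, 2.31 and 0 in T cell-like barcodes and 1.33 and 4.94 in the Cd209a cluster. The parathyroid level was 156-fold the mean of the 5 other types in replicate 1 and 72.7-fold in replicate 2 (adjusted p = 9.12e-10 in edgeR's quasi-likelihood test). All other types overlapped their neighbours in the order of levels, so no order among them can be read. Of the 22 Eya1 UMIs in fibroblast-like barcodes of replicate 2, 17 came from 2 barcodes.

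Six4, a homeodomain partner of the Eya proteins, had 27.96 and 25.9 CPM in parathyroid barcodes. Fibroblast-like barcodes had 7.27 and 6.07 CPM, macrophage-like barcodes 0 and 0.889, and none was counted in endothelial-like or T cell-like barcodes or in the Cd209a cluster. Those zeros allow up to 1.41 to 6.94 CPM, depending on the total of the type and library. The parathyroid mean was 4.04-fold that of fibroblast-like barcodes, and the fitted log2 fold change between them was 2.11 ± 0.27 (SE, edgeR, adjusted p = 7.59e-05). Fibroblast-like barcodes in turn lay above the 4 remaining types (edgeR, adjusted p = 0.000101), where 32% of all genes were called higher. The UMIs were spread, 36 over 26 fibroblast-like barcodes in replicate 1 and 54 over 40 in replicate 2.

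Pax9, a paired-box factor required for the third-pouch organs of the mouse, had 192 and 206 CPM in parathyroid barcodes. It had 6.67 and 4.94 CPM in fibroblast-like barcodes, 1.76 and 0.942 in endothelial-like, 1.05 and 3.11 in macrophage-like, 1.33 and 6.18 in the Cd209a cluster and no UMI in T cell-like barcodes, where 3 counts would be 6.94 and 6.60 CPM. The parathyroid level was 76.5-fold the mean of the 5 other types (edgeR, adjusted p = 2.84e-10) and 34.2-fold that of fibroblast-like barcodes. Fibroblast-like barcodes were called higher than the 4 remaining types for Pax9 as well (edgeR, adjusted p = 0.00336), although their levels overlapped those of the Cd209a cluster.

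Its paralog Pax1 had 31.3 and 30.9 CPM in parathyroid barcodes, with 949 and 2211 UMIs. Outside them it was close to absent, at 0.606 and 0.562 CPM in fibroblast-like barcodes and at 0 to 1 UMI in each of the other types and libraries. The parathyroid level was 79.4-fold the mean of the 5 other types (94.8-fold in replicate 1 and 68.2-fold in replicate 2, edgeR, adjusted p = 2.88e-08). No type other than parathyroid stood apart from its neighbours for Pax1.

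Tbx1 had 50.9 and 51.6 CPM in parathyroid barcodes, against 4.41 and 2.36 in endothelial-like, 1.01 and 1.35 in fibroblast-like, 2.09 and 0.889 in macrophage-like and 2.31 and 0 in T cell-like barcodes, and 0 and 1.24 in the Cd209a cluster. The parathyroid level was 32.7-fold the mean of the others (25.9-fold in replicate 1 and 44.3-fold in replicate 2, edgeR, adjusted p = 2.52e-09). All 10 Tbx1 UMIs of the endothelial-like barcodes, 5 in each library, fell in the cluster led by Mal and Pcsk1, at 13.4 and 8.74 CPM. They came from 2 and 3 barcodes. Endothelial-like barcodes were not called against the 4 remaining types for Tbx1 (log2 fold change 1.42 ± 0.70, SE, edgeR, adjusted p = 0.132).

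Hoxa3, the Hox factor whose loss in mice removes the parathyroids and thymus, had another pattern. It had 7.96 and 5.18 CPM in parathyroid barcodes, against 34.6 and 31.0 CPM in fibroblast-like barcodes and 10.6 and 10.4 CPM in endothelial-like barcodes. Macrophage-like barcodes had 0 and 0.445 CPM, the Cd209a cluster 1.33 and 1.24 CPM and T cell-like barcodes none, with 6.94 and 6.60 CPM as what 3 counts would be. Parathyroid barcodes lay below fibroblast-like barcodes (log2 fold change -2.27 ± 0.23, SE, edgeR, adjusted p = 4.05e-06, with 29.6% of all genes called lower), and fibroblast-like barcodes held 4.99-fold the parathyroid level. The difference from endothelial-like barcodes did not pass (log2 fold change -0.48 ± 0.32, SE, edgeR, adjusted p = 0.234).

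For Hoxa3 the call against the 5 other types together depends on the scale. The test compares with the average of log levels, which macrophage-like and T cell-like barcodes pull down, and gave a fitted log2 fold change of 2.56 ± 0.61 (SE, edgeR, adjusted p = 0.00349). On the linear scale the parathyroid level was 0.734-fold the mean of the 5 types, and with all other barcodes summed to 1 class the fitted log2 fold change was -1.40 (edgeR, adjusted p = 0.00218). Parathyroid Hoxa3 was 1.54-fold higher in replicate 1 than in replicate 2, the widest gap between libraries among these 6 factors.

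Within the fibroblast-like barcodes Hoxa3 was found in each of the 5 clusters, at 29.0 to 41.3 CPM in replicate 1 and 20.6 to 44.4 CPM in replicate 2. Endothelial-like barcodes also carried it in each of their 3 clusters, at 8.13 to 14.0 CPM. Against the 4 remaining types, Hoxa3 was higher in fibroblast-like (edgeR, adjusted p = 3.31e-07) and in endothelial-like barcodes (edgeR, adjusted p = 0.00171, with 24.1% of all genes called higher). Pericyte-like or smooth muscle-like barcodes, too few to be tested, had 60.2 and 22.1 CPM from 8 and 5 UMIs. Set against the 4 remaining types in the same way, macrophage-like and T cell-like barcodes and the Cd209a cluster had 0 factors called higher (edgeR), and 0 with a higher level at an unadjusted p under 0.05, where 19.9%, 13.3% and 17.9% of all genes were called higher.

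Hoxa3 in parathyroid barcodes was also set beside the fibroblast markers counted there. At the ratio of Hoxa3 to the 7 fibroblast markers seen in fibroblast-like barcodes, the markers counted in parathyroid barcodes correspond to 0.719 and 9.85 Hoxa3 UMIs, and 241 and 370 were counted. Hoxa4, which overlaps the Hoxa3 gene model, stood at 2.74 and 1.30 CPM in parathyroid barcodes and at 2.22 and 2.58 CPM in fibroblast-like barcodes.

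Isl1 gave no UMI in the 660 parathyroid barcodes of replicate 1, which allows a share of up to 0.455% of barcodes with a UMI, and 4 UMIs in 4 of 2237 barcodes of replicate 2 (0.0560 CPM, 95% Poisson interval 0.0152 to 0.143). It had no UMI in any of the 5 other types in either library. Its level in the glands was not detectable beyond these counts.

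Parathyroid barcodes were also set against each other type in turn. Eya1, Six4, Pax1, Pax9 and Tbx1 were called higher in each of the 5 comparisons, and Hoxa3 against macrophage-like and T cell-like barcodes and the Cd209a cluster, giving 28 of 30 tests (edgeR, adjusted p under 0.05). The share of all genes called higher was 29.8% against fibroblast-like, 28.7% against endothelial-like, 30.5% against macrophage-like and 28.3% against T cell-like barcodes and 31.2% against the Cd209a cluster. These 5 comparisons share the parathyroid sums, so they are not independent of one another.

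The UMIs of the factors outside the parathyroid barcodes were next set against the Pth UMIs found there. RNA that leaked from parathyroid cells would keep the ratio of a factor to Pth that parathyroid barcodes have, apart from counting error. Gcm2 and Casr in fibroblast-like barcodes lay near that ratio, at 1.87 and 1.26 times for Gcm2 and 0.770 and 0.851 times for Casr. Casr did not keep that ratio in every type. In macrophage-like barcodes it was at 2.80 times (95% interval 1.39 to 5.00) and 2.07 times (1.21 to 3.32), and in the Cd209a cluster at 6.33 times (3.62 to 10.3) and 12.4 times (8.08 to 18.1). Why Casr departed from the ratio there was not tested, and departures of the factors are given as values only. Hoxa3 exceeded the parathyroid ratio 526-fold and 714-fold in fibroblast-like barcodes and 106-fold and 160-fold in endothelial-like barcodes. Six4 exceeded it 31.5-fold (95% interval 21.9 to 43.9) and 27.9-fold (20.9 to 36.5) in fibroblast-like barcodes. Pax9 lay 4.21-fold (2.89 to 5.91) and 2.86-fold (2.08 to 3.84) above it there, with 33 and 44 UMIs against 7.84 and 15.4 at the parathyroid ratio.

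Tbx1 in fibroblast-like barcodes was at 2.40 times (0.779 to 5.62) and 3.11 times (1.61 to 5.44), so that the interval of replicate 2 excluded 1. That interval covers counting error only, and 6 of the 12 Tbx1 UMIs in it came from 2 barcodes. Pax1 in fibroblast-like barcodes had intervals that include 1 in both libraries (0.482 to 6.86 and 0.702 to 5.06), and so did Eya1 in endothelial-like barcodes of replicate 1 (0.00957 to 2.11), while replicate 2, with no UMI, had an upper bound of 0.807. Tbx1 in endothelial-like barcodes lay 6.92-fold (2.24 to 16.2) and 3.65-fold (1.19 to 8.53) above it. Eya1 in fibroblast-like barcodes was at 0.263 times (0.0318 to 0.949) and 1.71 times (1.07 to 2.59), below and above 1, with the UMIs of replicate 2 concentrated in 2 barcodes as given above. The parathyroid profile was also subtracted from each other type in proportion to its Pth UMIs. Then 6 of 6 factors were called higher in parathyroid barcodes, where 4913 of all genes were called higher and 2583 lower. Subtraction only takes factor UMIs from the other types, so the parathyroid calls could hardly have changed and are no check. After it Hoxa3, Six4 and Pax9 were still called higher in fibroblast-like barcodes than in the 4 remaining types.

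**Figure D2:**
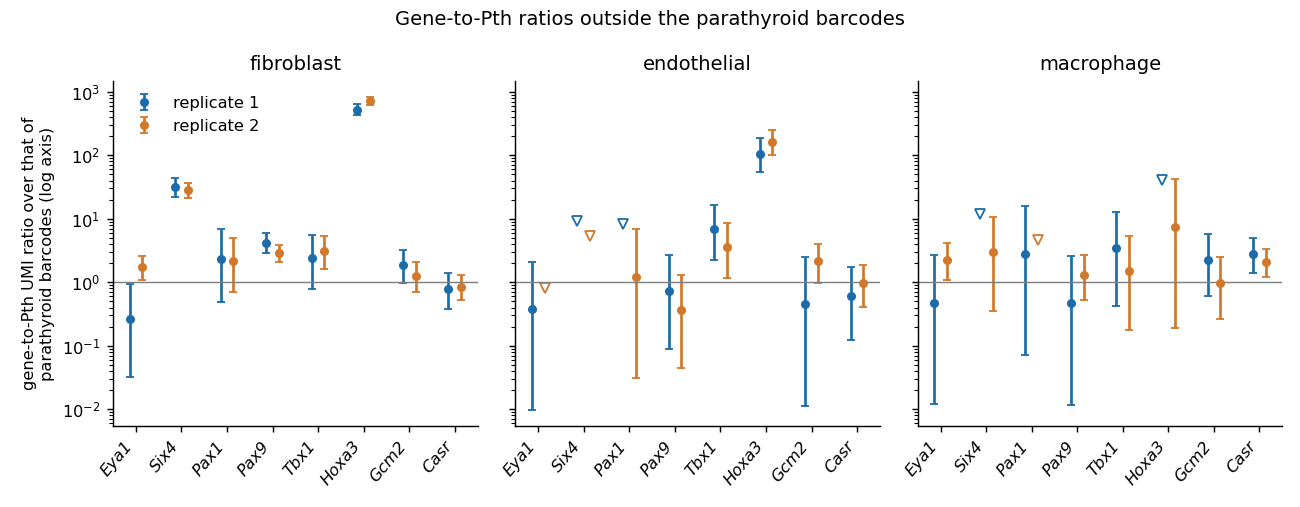
Ratio of each gene's UMIs to Pth UMIs in 3 types, divided by that ratio in parathyroid barcodes of the same library, on a log axis, with the exact conditional interval at 95% confidence. Open triangles are upper bounds where no UMI was counted, the line marks the parathyroid ratio, and Hoxa3 (526-fold and 714-fold) and Six4 (31.5-fold and 27.9-fold) stand above it in fibroblast-like barcodes. The Casr intervals include the line in fibroblast-like and endothelial-like barcodes and lie above it in macrophage-like barcodes (2.80 and 2.07 times).

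Detection per barcode followed the levels. At full depth Pax9 had a UMI in 96.5% and 97.2% of parathyroid barcodes and Eya1 in 95.5% and 93.3%. Tbx1 had one in 78.9% and 75.5%, Pax1 in 61.2% and 55.1%, Six4 in 60.9% and 51.9% and Hoxa3 in 25.5% and 13.8%. Since parathyroid barcodes were deeper than all others, each barcode was thinned to 10000 UMIs, which left out 21 of 660 and 60 of 2237 parathyroid barcodes and 17 of 230 and 23 of 453 fibroblast-like barcodes. Pax9 was then found in 80.8% and 84.2% of parathyroid barcodes, against 3.29% and 4.65% of fibroblast-like barcodes, and Eya1 in 76.4% and 74.7%, against 0.469% and 1.16%. Tbx1 was found in 37.7% and 39.2% (fibroblast-like 1.88% and 0.698%), Pax1 in 23.3% and 25.3% (0.469% and 0.233%) and Six4 in 23.6% and 22.0% (6.57% and 4.88%). Hoxa3 was found in 7.20% and 4.59% of parathyroid barcodes, against 29.1% and 22.8% of fibroblast-like barcodes. Macrophage-like barcodes, a type in which Hoxa3 was at or near 0, had it in 0 of 46 and 0 of 125 thinned barcodes.

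**Figure D3:**
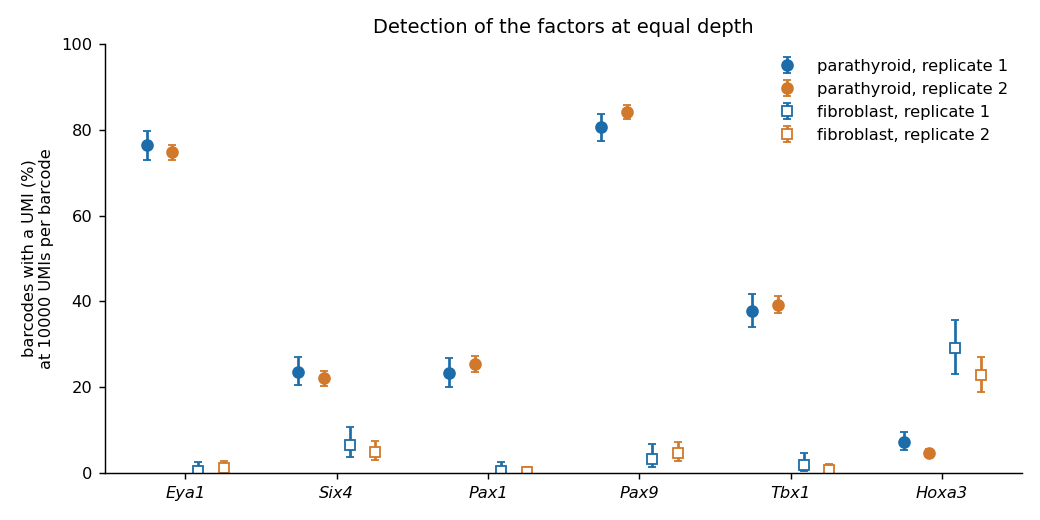
Share of barcodes with at least 1 UMI of each factor after thinning to 10000 UMIs, in parathyroid (filled circles) and fibroblast-like barcodes (open squares) of each library, with exact binomial intervals at 95% confidence. Pax9 and Eya1 were found in 74.7% to 84.2% of parathyroid barcodes, and Hoxa3 is the 1 factor with the larger share in fibroblast-like barcodes.

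At equal depth the share of barcodes without a UMI was set against that of a Poisson count. Tbx1 was missing from 62.3% and 60.8% of thinned parathyroid barcodes, where a count of the same mean leaves 60.6% and 59.9% empty. Pax9 was missing from 19.2% and 15.8%, with 16.1% and 12.4% from a Poisson count. Pax1 was missing from 76.7% and 74.7%, with 75.2% and 73.8% from a Poisson count. Eya1 differed most, missing from 23.6% and 25.3% with 17.8% and 17.4% from a Poisson count, and its variance was 1.50 and 1.66 times its mean. For Gcm2, which was measured alongside, the same variance-to-mean ratio was 1.05 and 1.15.

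Co-detection was described as the share of barcodes with both genes over the product of the single shares. At 10000 UMIs Eya1 and Pax9 were found together in 60.9% and 63.3% of parathyroid barcodes, where the product was 61.7% and 62.9%. Pax1 and Pax9, the paralogs, were together in 18.8% and 21.0%, with products of 18.8% and 21.3%. Eya1 and its partner Six4 were together in 19.2% and 16.03%, with products of 18.0% and 16.5%. Over the 15 pairs of the 6 factors the ratio had medians of 0.997 and 0.986, and 1 pair was above 1 and 6 below 1 in both libraries. The pair above 1 in both was Pax9 and Tbx1, at 1.03 and 1.02, chosen after its values were seen. Pairs with Hoxa3 varied widest, for example Six4 and Hoxa3 at 1.56 and 0.726 from 17 and 16 barcodes.

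Without thinning, 14 of 15 pairs were above 1 in both libraries, with medians of 1.03 and 1.02. Full-depth barcodes differ in their total, and deeper barcodes hold more of both genes. The number of the 6 factors found per parathyroid barcode had a median of 4 in each library at full depth and of 2 at 10000 UMIs. At 10000 UMIs 3 of the 6 were found in 33.8% and 35.3% of barcodes, where independent detection gives 33.6% and 34.3%.

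**Figure D4:**
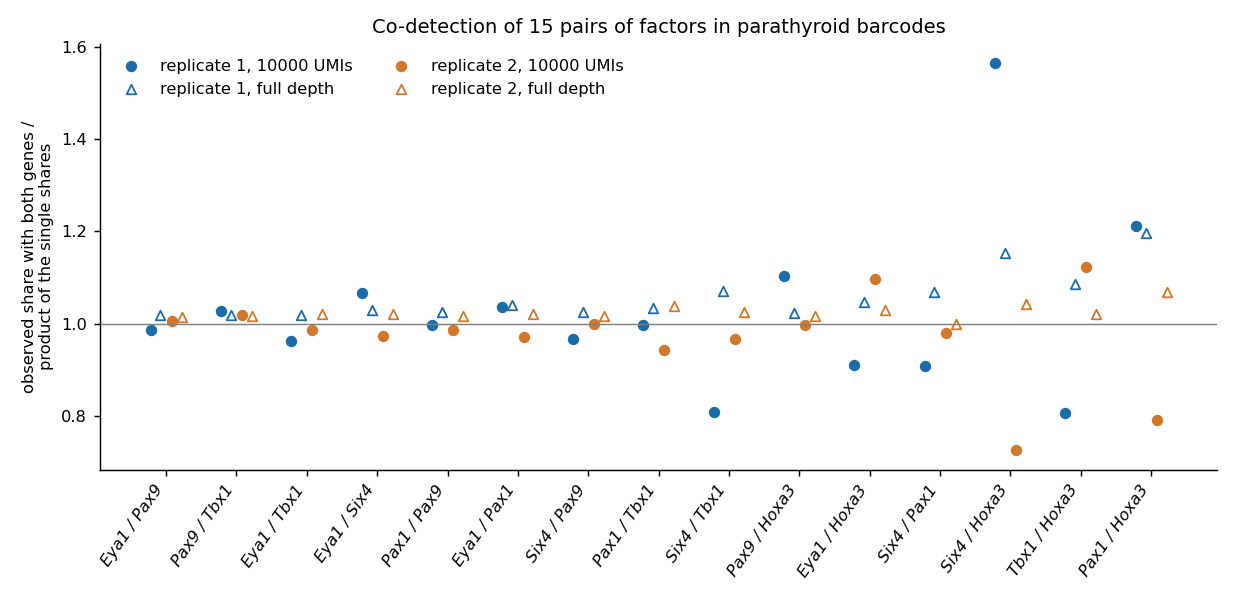
Observed share of parathyroid barcodes with both genes divided by the product of the single shares, for 15 pairs ordered by how often both were found in replicate 1. Circles are barcodes thinned to 10000 UMIs and triangles full depth, the line marks a ratio of 1, and 14 of 15 pairs lie above it in both libraries only at full depth.

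Within the parathyroid barcodes the factors were followed by the share of UMIs from Pth, with levels given as CPM of the UMIs other than Pth. Eya1 had lower values at higher Pth shares. In replicate 1 it had 251, 231, 188 and 185 CPM at 5 to 10%, 10 to 15%, 15 to 20% and at least 20% Pth. In replicate 2 it had 236, 225, 195 and 151. The Poisson intervals of its lowest and highest class overlap in replicate 1 (220 to 286 and 149 to 226). In replicate 2 they do not (211 to 264 and 139 to 165). Eya1 varied more between barcodes than a Poisson count, so these intervals are too narrow and the course is given as values only. Tbx1 ran the other way at the ends, with 57.9 and 78.7 CPM in the lowest and highest class of replicate 1 and 49.3 and 72.1 in those of replicate 2, although the intervals of the replicate 1 classes overlap (43.4 to 75.7 and 56.2 to 107). Pax9 had 264, 224, 221 and 179 CPM in replicate 1 and 233, 252, 242 and 224 CPM in replicate 2, so the libraries differed in its course. Pax1 had 35.2 to 37.4 CPM in replicate 1 and 33.4 to 37.8 in replicate 2 over the same classes. The highest class held 25 and 172 barcodes and the lowest 34 and 55. Cells of 1 library are not replicates, so no test was made.

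**Figure D5:**
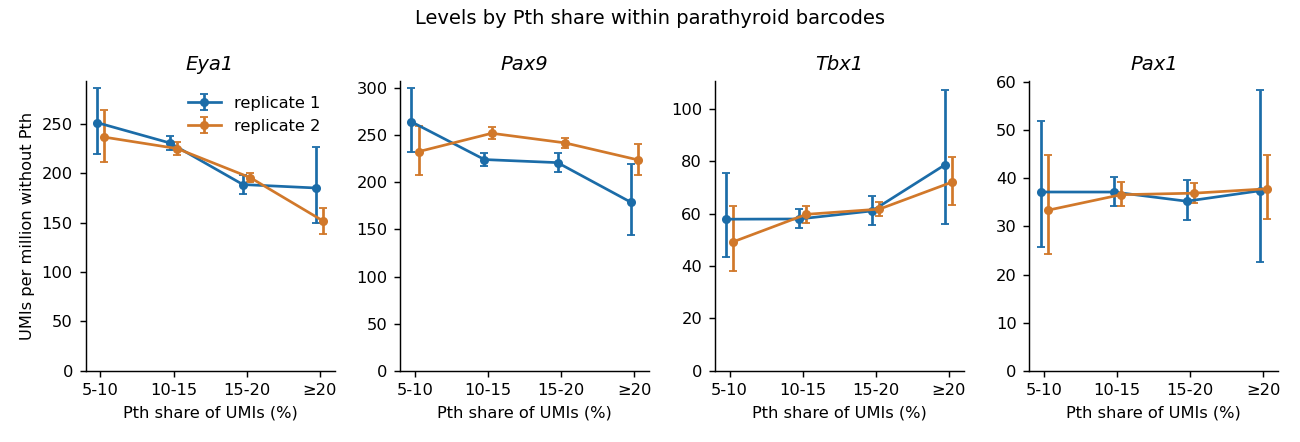
Levels of Eya1, Pax9, Tbx1 and Pax1 as CPM of the UMIs other than Pth in parathyroid barcodes grouped by their Pth share, with exact Poisson intervals at 95% confidence. Eya1 is at 251 and 236 CPM in the lowest class and at 185 and 151 in the highest class of replicates 1 and 2, whereas Pax1 stays between 33.4 and 37.8.

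Replicate 2 held 237 parathyroid barcodes with under 500 CPM of the Gfp entry, against 2000 with more. Eya1 had 191 CPM (95% Poisson interval 180 to 202) in the first and 206 CPM (203 to 210) in the second, without Pth UMIs. Eya1 varied more between barcodes than a Poisson count, so these intervals are too narrow for it and no difference is read. The intervals of Pax9 (242 to 268 and 239 to 248) and Tbx1 (59.2 to 72.3 and 58.8 to 63.0) overlapped. In replicate 1 only 8 barcodes were under 500 CPM.

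Genes of the same network were described with 6 lists, each gene tested in parathyroid barcodes against the average log level of the 5 other types, where 36.7% of all genes were called higher and 19.8% lower and the median log2 fold change was 0.19. Of 28 other pouch and parathyroid regulators 16 passed the filter, with 13 called higher, 1 lower and 2 not called (edgeR, adjusted p under 0.05), and a median log2 fold change of 2.27. Gata3, the zinc-finger factor upstream of Gcm2, averaged 375 ± 16.4 CPM in parathyroid barcodes and 25.5 ± 7.98 CPM in the other types (SD, n = 2 each, edgeR, adjusted p = 2.23e-11), with T cell-like barcodes the highest of these 5 types (87.9 and 141 CPM). In the untested cluster led by Areg, Gata3 stood at 843 and 668 CPM. Gcm2, whose levels are given above, passed as well (edgeR, adjusted p = 1.88e-10). Prdm1, a zinc-finger repressor, was lower (0.0660 and 0.0979 CPM in parathyroid barcodes, against a mean of 38.6 CPM, edgeR, adjusted p = 8.47e-09). Tbx3, not called, had 0.0660 and 0.294 CPM in parathyroid barcodes, against 72.3 and 55.6 CPM in fibroblast-like barcodes. As with Hoxa3, 7 of the 13 called higher had a linear mean below that of the 5 types, because types without UMIs lower the average of logs.

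Most paralogs of the factors were scarcely counted. Of 27, 7 passed the filter, with 3 called higher and 4 not called (edgeR), and a median log2 fold change of 0.10. Among those called higher, Tbx2 had 9.90 and 5.41 CPM in parathyroid barcodes, against a mean of 9.49 CPM over the 5 types. Its call too therefore rests on the log scale. Six5 had 4.89 and 5.44 CPM in parathyroid barcodes, against a mean of 3.78, and was higher in fibroblast-like barcodes (11.7 and 12.6 CPM). Eya3, not called, had 21.9 and 18.4 CPM in parathyroid barcodes, against a mean of 21.6. Among 10 other genes of the Hoxa cluster 2 passed the filter. Hoxa2 had 3.00 and 4.04 CPM in parathyroid barcodes, against 21.4 and 13.7 CPM in fibroblast-like barcodes and a mean of 4.47 CPM over the 5 types (called higher on the log scale, edgeR, adjusted p = 0.0291). Hoxa5, not called, had 0.0990 and 0.0420 CPM in parathyroid barcodes, against 9.69 and 7.54 CPM in endothelial-like barcodes.

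Of 25 genes of pouch signalling pathways 21 passed, with 6 called higher, 3 lower and 12 not called (edgeR), and a median log2 fold change of -0.29. The bone morphogenetic protein receptor gene Bmpr1a averaged 94.1 CPM in parathyroid barcodes and 40.3 CPM in the other types (edgeR, adjusted p = 6.94e-07). Smo, the Hedgehog signal transducer, averaged 39.7 and 18.95 CPM (edgeR, adjusted p = 3.61e-06). Both were higher in fibroblast-like barcodes, Bmpr1a at 156 and 128 CPM and Smo at 64.9 and 55.5 CPM. Wnt5a, a Wnt ligand, had 12.0 and 16.3 CPM in parathyroid barcodes, against 62.0 and 52.8 CPM in fibroblast-like barcodes. It had at most 3.11 CPM in the other 4 types (edgeR, adjusted p = 5.19e-05 against the mean of logs). The receptor gene Fgfr2 averaged 126 CPM in parathyroid barcodes and 88.7 CPM in the other types (edgeR, adjusted p = 0.00035). Endothelial-like barcodes had more Fgfr2, at 205 and 135 CPM. Notch1 (0.145 CPM, against 54.8), the retinoic acid receptor gene Rara (8.09 CPM, against 53.0) and the Notch ligand gene Jag1 (1.55 CPM, against 12.9) were lower (edgeR, highest adjusted p = 0.000164). Fgfr1, not called, averaged 24.8 CPM in parathyroid barcodes and 78.4 CPM in the other types.

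Genes of thymus identity were mostly uncounted, with 4 of 9 passing the filter and a median log2 fold change of 0.04. Krt8, a keratin of simple epithelia, averaged 139 CPM in parathyroid barcodes and 1.71 CPM in the other types and was higher (edgeR, adjusted p = 3.95e-09). Cd83 was lower at 1.68 CPM in parathyroid barcodes, against 327 CPM (edgeR, adjusted p = 0.000116). The chemokine gene Ccl25, not called, had 12.7 and 10.1 CPM in parathyroid barcodes, against a mean of 9.02 CPM. Of 11 thyroid and C cell genes 4 passed, with 1 called higher and 3 not called (edgeR), and a median log2 fold change of -2.51. Calca, the calcitonin gene, had 6.64 and 0.406 CPM in parathyroid barcodes, against 30.1 and 22.0 CPM in T cell-like barcodes and no UMI in the other 4 types (edgeR, adjusted p = 0.021 against the mean of logs). The thyroid hormone precursor gene Tg, not called, had 0.264 and 3.27 CPM in parathyroid barcodes.

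The genes most like each factor were taken by Pearson's r of log2(CPM + 1) over the 12 sums of 6 types and 2 libraries, which share libraries and depth, among 9969 genes with at least 20 CPM in 1 sum. For Eya1 they were Atp10b, Slc16a12 and Kcna1 (r of 0.965 to 0.962), and for Pax9 Efna5, Grhl2 and Esrrg (0.981 to 0.969). Six4 was most like Tceal5, Dnah7b and Cfap69 (0.991 to 0.986) and Pax1 most like Lama1, Klhl32 and Cldn3 (0.992 to 0.981). Tbx1 was most like Cdkl1, Cisd1 and Galntl6 (0.9625 to 0.9621) and Hoxa3 most like Cdc42ep5, C1qtnf6 and Gabarapl1 (0.970 to 0.966). These are descriptions of 12 points, and between 90 and 141 genes had r above 0.9 with a given factor. The parathyroid sums dominate them for Eya1, Pax9, Six4, Pax1 and Tbx1, whereas Hoxa3 was highest in the fibroblast-like sums. No likeness was read for Isl1, with its 4 UMIs.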

How the data were processed

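Gene-by-barcode UMI counts of 2 libraries were used as deposited; per the file headers and the submitters' processing notes the authors made these counts with Cell Ranger 7.0.0 on mm10 from 10x 3′ v3.1 libraries, and per the labels' protocols doublets were discriminated by flow cytometry before loading. Barcodes with under 500 genes, over 15% mitochondrial or over 5% haemoglobin UMIs were left out (147 and 199), as were 23 and 6 doublets predicted by Scrublet in scanpy 1.11.5. Barcodes under 1% Pth were clustered (2000 variable genes without the 7 factors, the listed genes and reporters, 30 components, Leiden resolution 1) and named from markers; clusters with fewer than 3 detected markers stayed unnamed. The libraries shared 2 kept barcode sequences. Counts were summed per library and type and tested with edgeR 4.0.16 (TMM, filterByExpr, quasi-likelihood, library as a block, 5 residual degrees of freedom, Benjamini-Hochberg over 13302 genes), a procedure also tested on simulated data. The block joins types of the same pooled mice, so it pairs by design. Alternatives included DESeq2 1.42.0, other Pth limits and subtraction of free RNA. The block takes up the shift between the 2 pools. The p-values of the main fit therefore measure how far the types deviate from that shift, pooled over types. They do not measure the spread between animals. Intervals (95%, exact Poisson or binomial) and the floor of 3 counts cover counting error only. The 7 factors and all lists were chosen with earlier results of these data known. Genes named from lists were up to 4 called of smallest p in each direction and the uncalled gene of highest parathyroid CPM; the 3 most like genes per factor left out mitochondrial, ribosomal and unnamed genes. Loci come from GENCODE vM21. Some genes that the naming rule selects are not reported here, though the list counts include them.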

Additional observations from a re-analysis of the deposited data

Results flagged for a closer look

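Signals of 3 factors appeared in barcodes too few to enter any test, above the level of the 5 tested types in both libraries. Tbx1 had 129 and 344 CPM in lymphatic endothelial-like barcodes, from 4 UMIs in 2 of 3 barcodes of replicate 1 and 15 UMIs in 5 of 5 barcodes of replicate 2. Pth in them was at 1866 and 1926 CPM, within the range of the other types.

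Eya1 had 479 and 1228 CPM, and Pax9 126 and 289 CPM, in an unnamed cluster led by Erbb4, with 6 and 8 barcodes and an Eya1 UMI in each of them. Erbb4 itself was at 1689 and 2095 CPM there, against 360 and 338 CPM in parathyroid barcodes. Genes of parathyroid cells were counted there too, with Gcm2 at 328 and 433 CPM, Casr at 907 and 1300 CPM, Chga at 50991 and 15026 CPM, tdTomato at 3428 and 2239 CPM and Pth at 7637 and 5707 CPM. Tbx1 was at 50.4 and 72.2 CPM, from 2 UMIs in each library. These barcodes had median depths of 5402 and 3164 UMIs, medians of 12.3% and 7.24% mitochondrial UMIs and of 0.804% and 0.496% Pth, against 3.49% and 3.32% mitochondrial UMIs in parathyroid barcodes. The part of depth and RNA quality in these levels was not tested.

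Eya1 had 144 and 21.3 CPM in an unnamed cluster led by Areg, which also holds Il5 and Il1rl1 among its leading genes. In replicate 1 all 20 UMIs came from 1 of 13 barcodes, and in replicate 2 the 7 UMIs came from 4 of 35.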

How the results depend on the processing

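The 5 factors other than Hoxa3 and Isl1 kept their direction and call in each of 13 alternatives, with lowest fitted log2 fold changes of 5.33 for Eya1, 3.07 for Six4, 5.92 for Pax1, 5.68 for Pax9 and 4.73 for Tbx1. Fits against types without UMIs depend on the prior count, so these sizes are no bounds. For Hoxa3 the sign turned with all other barcodes as 1 class (-1.40), and 5 factors were then called higher. That alternative weights types by their UMIs. The count of genes called lower moved from 2631 to 4340 with DESeq2 and to 6269 with 1 class, and the share of calls that were higher moved from 65% to 48.8% and 47.8% (73.8% without the filter on low counts, 58.5% with DESeq2 size factors). Without the filter the median log2 fold change of all genes was 0.62. Pairs above the product in both libraries numbered 3 after thinning to 5000 UMIs and 14 without thinning, against 1 at 10000. Without the replicate block 6 factors were called higher, and 4546 and 2438 genes were called higher and lower. Dropping the pairing by library changed no call of a factor in the comparisons of parathyroid barcodes with other types. Comparisons among the other types were not refitted without the block. Leaving out a library leaves no residual degrees of freedom, so values without a test were compared: the log2 CPM difference was 7.20 and 7.32 for Eya1 without replicate 1 and without replicate 2, and 1.32 and 2.21 for Hoxa3. Depth limits Isl1 and the types other than parathyroid, where 1 UMI decides whether a factor is found.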
